A study of Mus musculus with 18 samples.

Results

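Gene expression was compared between RN2 cells carrying a base editor with an active deaminase (intact BE, under vehicle) and RN2 cells carrying the same editor with a mutation that removes the deaminase's catalytic activity (catalytic mutant). The members are the 3 libraries titled intact BE with vehicle and the 3 titled catalytic mutant, 6 of the 18 libraries of the study, chosen by their titles alone and described over all 14985 genes that passed a filter on low counts. RN2 is an acute myeloid leukemia line of the mouse in which MLL-AF9 and a mutant Nras are the drivers. Cells of both groups were transduced with lentivirus and sorted on day 5, and polyadenylated RNA was sequenced with a directional kit. The sample labels give 24 h of vehicle for both groups, whereas the treatment protocol names only the intact BE and seBE cells as treated, so the vehicle exposure of the catalytic mutant cells is uncertain. Cells with nCas9, a nickase with no deaminase, serve below as a reference level, and the seBE and rapamycin groups of the study enter only the shared estimate of spread. The study's stated purpose was to look for effects on gene expression behind the toxicity of base editors.

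A cytosine base editor joins a Cas9 nickase to a deaminase that converts cytosine to uracil in single-stranded DNA near the guide's target. Deaminases of the APOBEC family can also act on cytosines elsewhere in the genome and, for some enzymes, in RNA. Uracil in DNA is removed by glycosylases such as Ung, Smug1 and Tdg, and the resulting gaps are filled by base excision repair. A comparison of the active with the catalytically dead enzyme is meant to keep the protein in the cell and remove the chemistry. How much editor the cells of each group held was not measured here. The mutation is a coding change in the construct and cannot be seen in gene counts, and mouse Apobec1, whose counts ran from 21.3 to 27.1 CPM (counts scaled to a common library size) with intact BE and from 25.1 to 32.8 CPM with the mutant, does not check the label.

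Library totals were 17753901, 14789497 and 18590586 counts with intact BE and 13835979, 18924153 and 14499265 with the mutant, so depth overlapped between the groups. The line's identity held: all 9 myeloid leukemia markers were detected in each group, with summed levels of 1730 to 1805 CPM against 1707 to 1778 CPM. Some single markers differed without overlap and in both directions, as did 37.8% of all genes tested. Spi1 was at 157 to 195 CPM with intact BE against 222 to 241 CPM with the mutant. Ptprc was at 413 to 453 CPM against 286 to 403 CPM, and Kit at 144 to 153 CPM against 119 to 135 CPM. The other myeloid markers overlapped between the groups. Of 14 lymphocyte markers, 9 had no count with intact BE and 10 had none with the mutant, and the sums of the rest overlapped. The 13 markers of mast cells, megakaryocytes and erythroid cells summed to 53 to 55.9 CPM with intact BE and 67.4 to 93.0 CPM with the mutant, without overlap, with 4 at no count in each group. The part of that difference in the results was not tested. In the third mutant library, the gene with the most counts elsewhere, an Ensembl gene with no symbol in the name table, took 0.153% of counts against 1.83% to 3.02% in the intact BE libraries, and the nuclear RNA Malat1 stood at 314 CPM against 1446 and 1415 CPM in the other mutant libraries.

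The comparison held a large number of small differences, and their direction went with the base composition of the transcript. Of the 14985 genes tested, 3141 (21%) passed an adjusted p of 0.05, with 1743 (11.6%) higher and 1398 (9.33%) lower with intact BE (edgeR quasi-likelihood test, Benjamini-Hochberg adjustment over all genes). With upper-quartile scaling the split was 1353 higher and 1660 lower. Without intact BE replicate 1 the count was 1662, and without mutant replicate 2 it was 2089. The median size was 0.36 on the log2 scale among the genes that rose and -0.46 among those that fell. The libraries of the groups did not overlap for 5665 genes (37.8%), with 3011 higher (20.1%) and 2654 lower (17.7%). Large changes ran in one direction: 145 genes (0.968%) changed at least 2-fold, of which 140 fell (0.934%) and 5 rose (0.0334%); with the length and GC trend described below removed, 77 did, 76 lower and 1 higher. The 5 that rose as fitted were Dcbld2, BC055308, Carmil1, Gm17809 and Fam13a, named after their values were seen; each was under 5 CPM in every library, and each lost its call when 1 library was left out, with an adjusted p of 0.105 for BC055308, 0.123 for Dcbld2 and 0.129 for Carmil1 without mutant replicate 2, 0.182 for Gm17809 without intact BE replicate 1 and 0.184 for Fam13a without mutant replicate 1. The 140 included 78 protein-coding genes, 53 noncoding genes or pseudogenes, 15 of the 140 were mitochondrial, and 56 of them were under 5 CPM even in the mutant, where they were higher.

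The calls are read here beside the GC content of each gene's longest transcript, because the fold changes followed it. Across 9082 genes of at least 3 log2 CPM, the fold change had a Spearman correlation of -0.64 with GC content and 0.35 with transcript length. These correlations are across genes, which are not independent replicates, and all share the same 6 libraries. Among the 10% of genes with the lowest GC content (27.5% to 40.8%), 25.4% rose and 2.12% fell. Among the 10% with the highest (57.6% to 82.9%), 1 of 1460 genes rose and 28.9% fell. Genes that rose had a median GC content of 43.8% and a median length of 4655 bases, and genes that fell 55.6% and 2732 bases, against 49.3% and 2959 bases over all genes with an annotated transcript.

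A pair of DNA polymerase subunits shows what this difference in composition looks like. Pola1 encodes the catalytic subunit of the polymerase that primes replication and Pold1 that of the main lagging-strand polymerase. The GC content of their RNAs is 41.5% for Pola1 (chromosome X) and 60.7% for Pold1 (chromosome 7). For each, the first codon-aligned stretch of 120 coding bases whose GC content was nearest to that of its whole coding sequence is printed, in the GENCODE M21 transcripts of GRCm38, with G and C in capitals.
Pola1, coding bases 76 to 195: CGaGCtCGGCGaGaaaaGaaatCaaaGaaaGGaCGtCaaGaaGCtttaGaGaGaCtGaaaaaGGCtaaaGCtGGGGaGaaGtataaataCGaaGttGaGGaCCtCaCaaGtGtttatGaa
Pold1, coding bases 277 to 396: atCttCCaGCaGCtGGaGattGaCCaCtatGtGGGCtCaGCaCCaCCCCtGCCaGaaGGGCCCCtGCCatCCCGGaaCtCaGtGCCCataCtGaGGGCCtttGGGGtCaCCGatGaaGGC
Pola1 stood at 130, 116 and 110 CPM with intact BE and at 71.0, 74.2 and 93.1 CPM with the mutant, a rise of 0.58 ± 0.108 log2 (SE, adjusted p = 0.000365). Pold1 stood at 97.5, 106 and 115 CPM against 140, 152 and 143 CPM, a fall (log2 -0.45 ± 0.0862, adjusted p = 0.000374). Neither gene's groups overlapped, and the partners of one replication machinery moved in opposite directions. With the trend of fold change on length and GC content removed from each library, Pola1 remained higher at 0.31 (adjusted p = 0.0103), and Pold1 was at -0.08 (adjusted p = 0.503).

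The dependence on GC content differed between the groups and also varied between libraries of the same group. The slope of the log2 level on GC content, relative to the mean of all libraries, was -0.193, -0.0771 and -0.00863 log2 per 10 points of GC in the intact BE libraries and 0.198, 0.207 and 0.142 in the mutant libraries. The groups did not overlap, and their means differed by -0.275 (exact permutation test, 2-sided p = 0.1, the smallest that 3 libraries against 3 allow). The intact BE libraries were spread over a range of slopes far wider than the nCas9 libraries, which lay between -0.0253 and 0.0129. All 3 mutant libraries were above that range. Intact BE replicates 1 and 2 were below it, and intact BE replicate 3 was within it. Slopes on length were 0.0440 ± 0.0135 with intact BE and -0.0181 ± 0.0242 log2 per doubling of length with the mutant (SD, n = 3; exact permutation p = 0.1). The nCas9 libraries had length slopes of -0.0743, -0.0992 and -0.0510, below every library of both groups. Whether these slopes arose in the cells or in library preparation was not tested. With both trends removed, 1576 genes (10.5%) passed, 802 (5.35%) higher and 774 (5.17%) lower. The Spearman correlation of fold change with GC content was then -0.0032, a value that the removal itself brings near 0. The count of genes that passed was 707 without mutant replicate 2, 765 without intact BE replicate 1 and 926 without mutant replicate 1. It was 934 and 999 without intact BE replicates 2 and 3, and 1842 without mutant replicate 3.

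**Figure D1:**
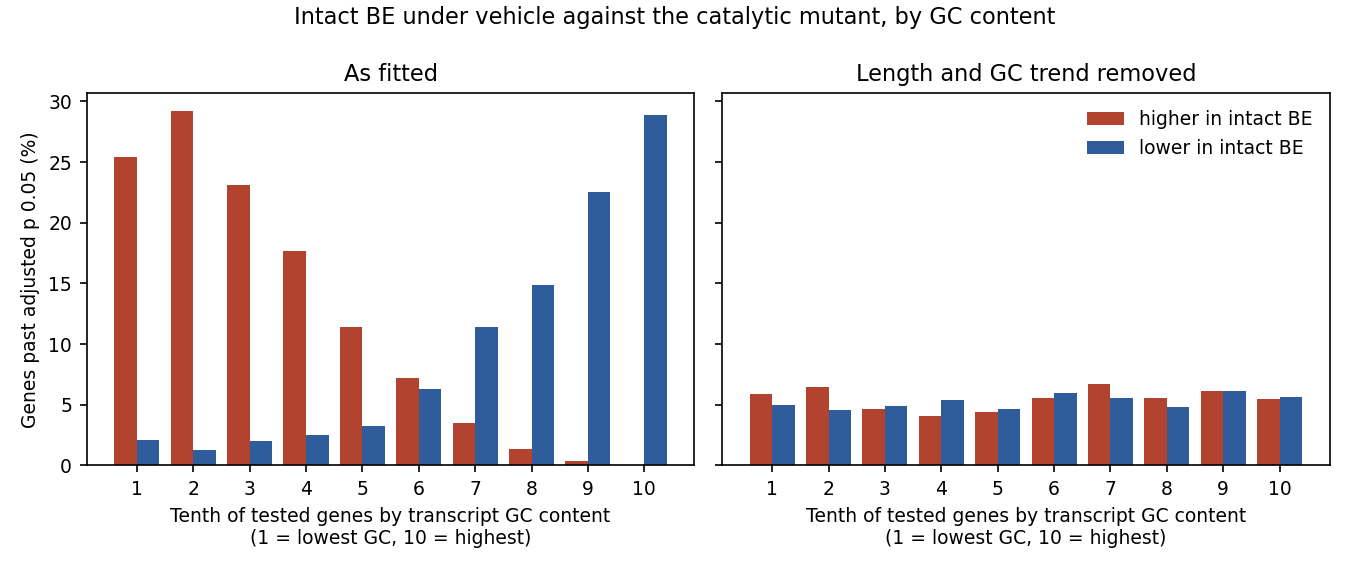
Share of tested genes past an adjusted p of 0.05 (percent, vertical axis) in 10 sets of genes of equal size ordered by GC content (horizontal axis), red for genes higher and blue for genes lower with intact BE. As fitted (left), the share higher drops from 25.4% to 0.0685% and the share lower climbs from 2.12% to 28.9% from the lowest to the highest set. With the length and GC trend removed (right), both stay between 4.04% and 6.72%, where the removal itself levels fold changes across GC content.

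**Figure D2:**
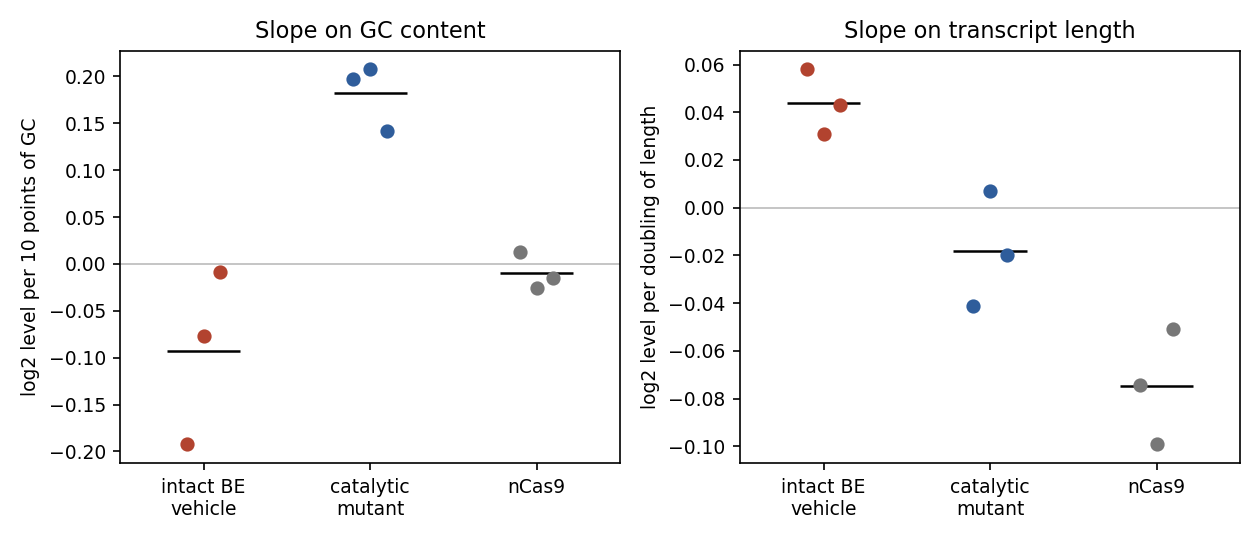
Slope of log2 level on GC content (left, per 10 points) and on transcript length (right, per doubling) in each library, with points for libraries and lines for group means of 3. On GC content, all 3 mutant libraries lie at 0.142 or above and all 3 intact BE libraries at -0.00863 or below. The nCas9 libraries lie near 0 on GC content and lowest on length, at -0.0510 or below.

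Genes called the same way with and without the trend numbered 1061 (7.08%), 506 higher (3.38%) and 555 lower (3.7%), while 2080 of the calls were not made once the trend was removed and 513 others appeared. Rpl29, a ribosomal protein gene, and Ube2m, which encodes a NEDD8-conjugating enzyme, passed in both and in opposite directions, from log2 -0.25 to 0.20 and from -0.22 to 0.23. Of 2251 long noncoding RNA genes tested, 78 fell and 10 rose, both smaller shares than the 9.33% and 11.6% of all genes. With the trend removed, 51 of the 2251 were lower and 4 higher. The median log2 fold change of the 2251 was -0.24, and -0.25 with the trend removed, against -0.03 over all genes tested. In the gene groups that follow, each count is given beside the count with the trend removed, against a background of 11.6% higher and 9.33% lower as fitted and of 5.35% and 5.17% with the trend removed. The genes counted with the trend removed were not always those counted as fitted.

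Enzymes of sterol synthesis were higher with intact BE than with the catalytic mutant, and the nCas9 level differed from enzyme to enzyme. Cholesterol is built from acetyl-CoA through mevalonate, and its enzymes are switched on together by SREBP2, the product of Srebf2, when sterol in the endoplasmic reticulum is low. Of 20 enzymes of the pathway, 10 rose and none fell, with a median log2 fold change of 0.27. With the trend removed 10 were again higher and none lower, with a median of 0.26, and 8 genes passed both ways. Nsdhl and Sc5d, for example, passed only as fitted, and Mvd only with the trend removed. The promoters of the pair of genes with the largest rises are printed here, to show which of 2 motifs known from this pathway stand before each gene. They are RefSeq sequence of GRCm38.p6, plus strand, from 250 bases before to 50 bases after the annotated start, with matches to CCAAT (either strand, so also ATTGG) and to TCACNCCA (either strand, a form of the sterol regulatory element) in capitals.
Idi1, chr13:8885356-8885655: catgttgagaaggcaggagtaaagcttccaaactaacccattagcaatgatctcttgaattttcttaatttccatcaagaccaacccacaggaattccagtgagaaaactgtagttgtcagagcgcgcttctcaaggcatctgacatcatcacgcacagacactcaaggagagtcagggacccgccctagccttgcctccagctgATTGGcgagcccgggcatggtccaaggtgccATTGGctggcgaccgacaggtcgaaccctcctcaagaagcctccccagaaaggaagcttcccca
Hmgcs1, chr13:119690101-119690400: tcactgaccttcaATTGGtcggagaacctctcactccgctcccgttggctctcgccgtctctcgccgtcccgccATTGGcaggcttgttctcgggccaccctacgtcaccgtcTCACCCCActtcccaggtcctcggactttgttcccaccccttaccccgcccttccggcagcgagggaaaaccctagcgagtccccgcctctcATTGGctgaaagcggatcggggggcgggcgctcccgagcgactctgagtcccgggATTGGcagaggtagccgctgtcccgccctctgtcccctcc
The table of promoters held 15 of the 20 sterol enzyme genes. CCAAT occurred in the promoters of 14 of these 15 and of 41.1% of all 27025 genes in the table, and TCACNCCA in those of Hmgcs1 and Msmo1 and of 4.97% of all genes. The Idi1 window held 2 matches to CCAAT, and the Hmgcs1 window 4, with 1 to TCACNCCA. A match is a description of the letters and does not show that a factor binds there.

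Idi1, which encodes isopentenyl-diphosphate isomerase, stood at 169.9, 172.1 and 157.5 CPM with intact BE and at 82.3, 91.1 and 105 CPM with the mutant. Every intact BE library was above every mutant library. The rise was 0.84 ± 0.102 log2 (adjusted p = 3.94e-06) and remained at 0.65 with the trend removed (adjusted p = 4.92e-06), while nCas9 cells lay at the mutant's level with a mean of 96.3 CPM. Hmgcs1, the cytosolic HMG-CoA synthase, rose by 0.64 ± 0.0898 log2 (adjusted p = 2.02e-05), from 123, 138 and 158 CPM with the mutant to 215, 231 and 206 CPM. Its nCas9 mean of 172 CPM lay between the groups. Cyp51 (lanosterol demethylase) rose by 0.44, Msmo1 (sterol methyl oxidase) by 0.47 and Sqle (squalene epoxidase) by 0.41 on the log2 scale. All 3 were also higher with the trend removed, by 0.30, 0.32 and 0.33. The nCas9 mean of Cyp51, 221 CPM, lay between intact BE (268 CPM) and the mutant (198 CPM). That of Msmo1, 174.5 CPM, also lay between them (192 and 138 CPM). For Sqle it was 131 CPM, at the mutant's level of 130.5 CPM. Members that did not pass included Fdft1, squalene synthase (log2 0.18, adjusted p = 0.169). Its nCas9 mean of 120 CPM was at the level of intact BE (119 CPM), against 105 CPM with the mutant.

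The regulators around the pathway moved less evenly. Of 15 genes of SREBP processing and sterol uptake, 3 rose and 1 fell, and 6 were higher and none lower with the trend removed. Stard4, a carrier of cholesterol between membranes, stood at 186, 179 and 159 CPM against 106, 114 and 125 CPM, with no overlap, and rose by 0.60 ± 0.0831 log2 (adjusted p = 1.63e-05). Mbtps2, a protease that releases SREBPs, rose by 0.58, and Insig1, which holds them back and is itself a target, by 0.29. Srebf2 was at 0.16 (adjusted p = 0.166) as fitted and at 0.37 (adjusted p = 0.00026) with the trend removed. Of 9 genes of sterol efflux and the LXR receptors, 3 rose and 2 fell, against 1 and 1 with the trend removed. Apoe, a lipoprotein component that carries cholesterol out of cells, fell from 25.7, 26.7 and 18.1 CPM with the mutant to 8.68, 8.50 and 10.7 CPM (log2 -1.33 ± 0.223, adjusted p = 0.000148), and was at -0.96 with the trend removed.

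Fatty acid synthesis genes were higher alongside the sterol enzymes. Of 15, 7 rose and 1 fell, and 8 were higher and none lower with the trend removed, 5 of them both ways. Scd2, a stearoyl-CoA desaturase, stood at 839, 975 and 861 CPM against 573, 609 and 617 CPM. The groups were far apart relative to their spread, with a rise of 0.57 ± 0.0786 log2 (adjusted p = 1.63e-05), and nCas9 was between them at a mean of 750 CPM. Acly, which makes the acetyl-CoA used by both pathways, rose by 0.39 as fitted and by 0.43 with the trend removed. Elovl5 and Elovl6, which lengthen fatty acids, rose by 0.38 and 0.49, and of the 2 Elovl6 did not pass with the trend removed (log2 0.24, adjusted p = 0.0512). Fasn, fatty acid synthase, was at 0.12 (adjusted p = 0.256) as fitted and higher by 0.26 (adjusted p = 0.00334) with the trend removed. The call of Acaca was not made when intact BE replicate 1 was left out (adjusted p = 0.064), nor that of Fads2 when intact BE replicate 2 was (adjusted p = 0.131). With the trend removed, Acaca did not pass (log2 0.10, adjusted p = 0.387) and Fads2 was higher by 0.47 (adjusted p = 0.000157). The nCas9 mean of Fads2 (166 CPM) was at the level of intact BE (165 CPM), against 133 CPM with the mutant. That of Acaca (173 CPM) was under the mutant's mean of 183 CPM.

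**Figure D3:**
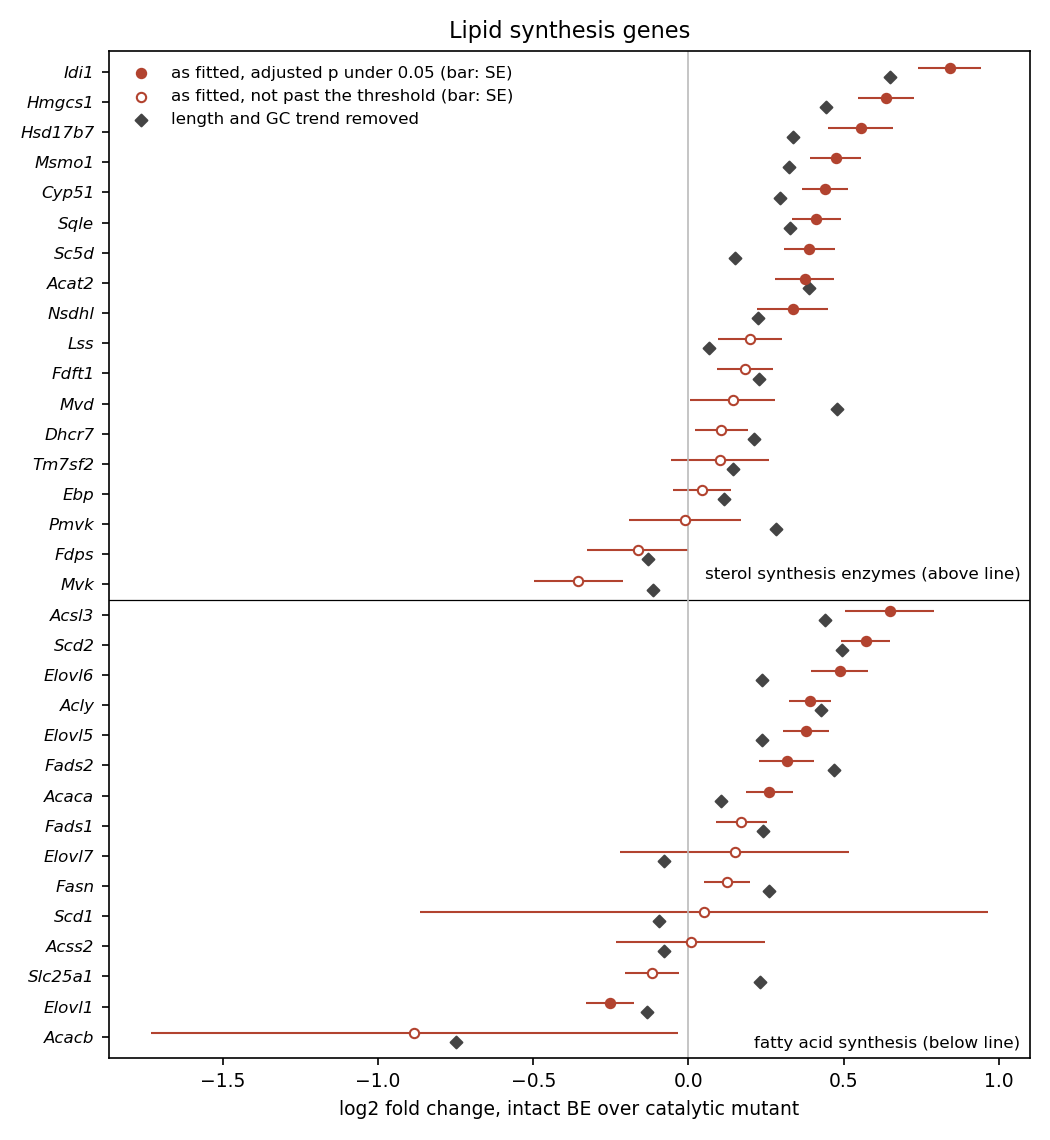
Log2 fold change of intact BE over catalytic mutant for 18 of the tested sterol synthesis enzymes (above the line) and the fatty acid synthesis genes (below), as fitted with its standard error (circles, filled where the adjusted p is under 0.05) and with the length and GC trend removed (diamonds). Idi1 has the largest rise of the sterol enzymes at 0.84, and stands at 0.65 with the trend removed.

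Mitochondrially encoded RNAs fell together, and against the GC trend. The mitochondrial genome encodes subunits of the respiratory chain and ATP synthase, 2 ribosomal RNAs and the tRNAs that translate them. Its transcripts took 1.88% ± 0.126 of counts with intact BE and 4.53% ± 0.879 with the mutant (SD, n = 3; exact permutation test, 2-sided p = 0.1, the smallest possible). The nCas9 libraries, at 4.43% to 5.54%, were in the range of the mutant. Of 15 genes listed, 12 fell and none rose, with a median of -1.26, and the same 12 fell with the trend removed, with a median of -1.42. Those 12 had GC contents of 34.1% to 39.9%, within the lowest 10% of all genes tested, in which more genes rose than fell. The 3 that did not pass, mt-Nd3, mt-Nd4l and mt-Atp8, were near or under 1 CPM.

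mt-Co1, a core subunit of cytochrome c oxidase, stood at 9312, 8472 and 8193 CPM with intact BE and at 17130, 25960 and 19000 CPM with the mutant. All mutant libraries were above all intact BE libraries, and the fall was log2 -1.26 ± 0.213 (adjusted p = 0.00131). mt-Nd1, of complex I, stood at 2715, 2359 and 2340 CPM against 5188, 7179 and 5638 CPM (log2 -1.28 ± 0.192, adjusted p = 0.000585). mt-Cytb of complex III fell by 1.26 and mt-Nd5 by 1.29 on the log2 scale, and mt-Nd6, the protein gene read from the opposite strand, by 1.12. mt-Rnr1 fell by 0.84 and lost its call without mutant replicate 2 (adjusted p = 0.12). The largest falls by rule included mt-Co2 (-1.85), mt-Atp6 (-1.64) and mt-Co3 (-1.53), which were counted at low levels of 2.02 to 14.5 CPM. The strand setting and the handling of reads that map to several places are unknown for these counts, and their part in these low levels and falls was not tested.

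Nuclear genes of the same organelle went in both directions. Of 35 nuclear-encoded respiratory chain genes, 6 rose and 8 fell, with a median of 0.01, and 5 were higher and 3 lower with the trend removed. The 6 that rose had GC contents of 38.4% to 49.4% and the 8 that fell 49% to 58%. Ndufa2 of complex I (log2 -0.53) and Uqcrq of complex III (-0.47) fell both ways. Of 22 genes of mitochondrial replication, transcription and translation, 1 rose and 3 fell, with a median of 0.04, against none and 3 with the trend removed. Polg, the mitochondrial DNA polymerase, stood at 81.2, 79.1 and 78.3 CPM against 101, 113 and 93.0 CPM and fell by 0.36 (adjusted p = 0.00225), and by 0.37 with the trend removed. Fastk, a kinase-like protein that includes a mitochondrial form bound to mt-Nd6 RNA, fell by 0.63.

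Cytoplasmic ribosomal protein genes were lower, in part with the GC trend. They took 7.08% ± 0.202 of counts with intact BE and 8.36% ± 0.602 with the mutant (SD, n = 3; exact permutation p = 0.1). Of 47 large-subunit genes none rose and 23 fell (median -0.22), and of 32 small-subunit genes none rose and 18 fell (median -0.24). With the trend removed, 14 large-subunit genes were lower and 1 higher, and 14 small-subunit genes lower and 3 higher, with medians of -0.08 and -0.16. Rpsa, which encodes a protein of the small subunit also described as a laminin receptor, stood at 2030, 2242 and 2315 CPM with intact BE and at 3373, 3339 and 3288 CPM with the mutant. The mutant and nCas9 libraries (3023 to 3304 CPM) lay close together and the intact BE libraries well under both, a fall of log2 -0.60 ± 0.0725 (adjusted p = 3.26e-06) and of -0.55 with the trend removed. Rps15, with a GC content near the top of the range, fell by 0.62 as fitted and was at -0.09 (adjusted p = 0.285) with the trend removed. Ribosomal protein genes have many processed pseudogenes, and how reads that match several places were counted is not given in the sources used here; Rpsa-ps10, one such copy of Rpsa, is itself among the largest falls (-1.37).

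Host genes of small nucleolar RNAs fell as well. These genes carry snoRNAs in their introns, and their spliced RNAs often contain the terminal oligopyrimidine start shared with ribosomal protein genes and are degraded when translated. Of 17, none rose and 8 fell, with a median of -0.31 at a median GC content of 45.7%, and 8 were lower with the trend removed, 7 of them both ways. Snhg5 stood at 56.5, 54.5 and 62.4 CPM against 92.3, 86.6 and 83.2 CPM, with no overlap, and fell by 0.59 ± 0.0966 log2 (adjusted p = 7.86e-05), or by 0.69 with the trend removed. Snhg12 fell by 0.56, Snhg17 by 0.58 and Snhg20, at 5.87 to 14.3 CPM, by 1.00. Neat1, the scaffold RNA of paraspeckles, stood at 70.3, 95.6 and 81.3 CPM against 161, 205 and 119 CPM and fell by 0.98 ± 0.285 (adjusted p = 0.0286), a call lost without mutant replicate 2 (adjusted p = 0.129). Replication-dependent histone genes were at low levels in this polyadenylated RNA: of 26 genes in that list 2 rose and 1 fell, with a median of -0.50, and none passed with the trend removed. The 2 that rose, Npat (0.44) and Slbp (0.31), are not histone genes but serve their transcription and RNA processing, and the call of Slbp was lost without mutant replicate 2 (adjusted p = 0.0896).

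**Figure D4:**
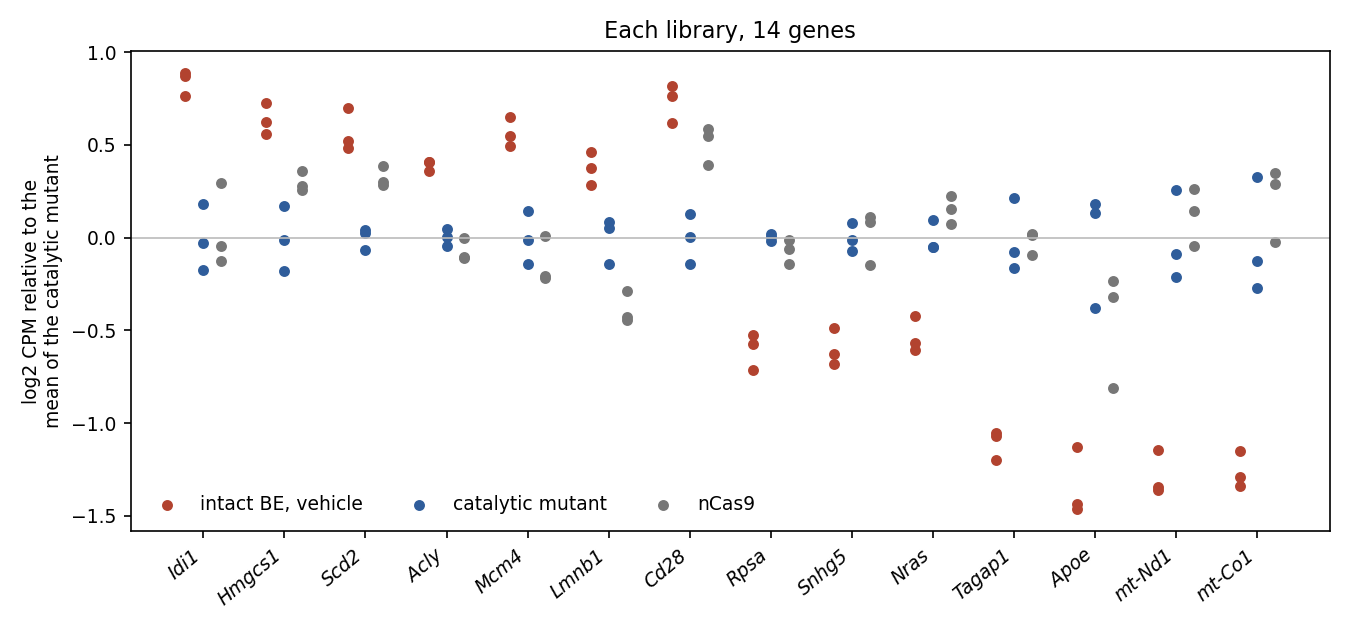
Log2 CPM of 14 genes in each library of intact BE (red), catalytic mutant (blue) and nCas9 (grey), relative to the mean of the mutant; each point is a library. All intact BE points lie above all mutant points from Idi1 to Cd28 and below them from Rpsa to mt-Co1, and the nCas9 points fall on the mutant's side for mt-Nd1, mt-Co1, Rpsa, Snhg5, Nras and Tagap1.

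Repair of uracil in DNA is the pathway nearest to the deaminase's chemistry, and its share of genes past the threshold was near that of all genes. Of 23 base excision repair genes 3 rose and 2 fell, with a median of -0.05, and 3 were higher and none lower with the trend removed. Only 1 was higher both ways. Ung, the main nuclear and mitochondrial uracil glycosylase, stood at 25.5, 32.1 and 26.8 CPM against 27.0, 21.9 and 30.4 CPM, with overlapping groups (log2 0.09 ± 0.131, adjusted p = 0.705). Smug1 was at 0.13 ± 0.188 (adjusted p = 0.725) at 8.17 to 13.9 CPM. Tdg, which removes thymine and uracil opposite guanine, rose from 76.2, 73.1 and 84.0 CPM to 99.1, 92.2 and 102 CPM (log2 0.33 ± 0.0941, adjusted p = 0.00982), a call lost without mutant replicate 2 (adjusted p = 0.0669); it was higher by 0.26 (adjusted p = 0.0428) with the trend removed. Xrcc1, a scaffold of single-strand break repair, fell by 0.41 and did not pass with the trend removed.

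Targets of p53 often rise after DNA damage, and here those past the threshold went in both directions. Of 33 p53 target genes 3 rose and 2 fell, with a median of -0.04, against 1 and 2 with the trend removed. Cdkn1a, the cell cycle inhibitor p21, stood at 148, 149 and 152 CPM against 146, 168 and 174 CPM (log2 -0.12 ± 0.0796, adjusted p = 0.331), and Mdm2, the ligase that restrains p53, at 136, 138 and 136 CPM against 132, 138 and 136 CPM (log2 0.02 ± 0.0716, adjusted p = 0.921). The groups overlapped for both. Trp53 was at -0.09 (adjusted p = 0.427). Apaf1, of the apoptosome, rose by 0.46 and Psrc1, a spindle protein, fell by 0.66, both also with the trend removed. Of 17 checkpoint genes 5 rose and 1 fell, against 4 and none. Atm, the kinase that answers double-strand breaks, was among the largest rises of all, at 73.3, 56.0 and 60.2 CPM against 34.3, 41.4 and 36.7 CPM (log2 0.75 ± 0.12, adjusted p = 6.83e-05), and was higher by 0.42 with the trend removed.

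In double-strand break repair the calls went with composition. Of 30 homologous recombination and Fanconi genes 9 rose and 1 fell as fitted. The 9, among them Brip1 (0.48), Blm (0.39) and Brca1 (0.34), had GC contents of 41.2% to 46.2%, and Fanca, which fell by 0.40, had 54.5%. With the trend removed none of the 30 was higher and 2 were lower, and the median moved from 0.14 to 0.00. Fanca lost its call as fitted without mutant replicate 2 (adjusted p = 0.088). Of 16 end-joining genes 2 rose, and 1 was higher with the trend removed. Rif1, which blocks resection at breaks and times replication, stood at 214, 172 and 179 CPM against 109, 124 and 121 CPM, with no overlap, and rose by 0.67 ± 0.103 (adjusted p = 6.16e-05), or by 0.34 with the trend removed. Of 8 mismatch repair genes 1 rose and none fell, and none passed with the trend removed.

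Replication and mitosis genes were higher in part. Of 25 genes of the helicase and of origin licensing 4 rose and 2 fell, and 5 were higher and 1 lower with the trend removed. Only 1 was higher and 1 lower both ways. Mcm4, a helicase subunit, stood at 341, 306 and 318 CPM against 216, 197 and 240 CPM, with the nCas9 mean at 198 CPM, and rose by 0.56 ± 0.0843 (adjusted p = 3.38e-05). Recql4, a helicase mutated in Rothmund-Thomson syndrome, fell by 0.73, and by 0.50 with the trend removed. Of 29 polymerase and fork genes 9 rose and 3 fell, and 7 were higher and 3 lower with the trend removed. Of these, 4 were higher and 1 lower both ways. Pcna, the sliding clamp, rose by 0.33 and Top2a, topoisomerase II, by 0.46, both also with the trend removed (0.23 and 0.22). Of 26 nucleotide synthesis genes 9 rose and 2 fell, against 6 and 2 with the trend removed, among them Prps1 (0.47) and Dck (0.51).

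Of 34 mitosis genes 18 rose and none fell, with a median of 0.25 at a median GC content of 45.7%. With the trend removed 8 were higher and the median was 0.09. Kif11, the spindle motor, rose by 0.51 and Ccna2, cyclin A2, by 0.41, and both kept a rise with the trend removed (0.26 and 0.30). Of 20 cohesin and condensin genes, which hold and fold chromosomes, 16 rose and 2 fell, at a median GC content of 42.4%. With the trend removed 9 were higher and 1 lower. Rad21, the cohesin kleisin, stood at 438, 409 and 418 CPM against 287, 295 and 318 CPM, with no overlap, and rose by 0.49 ± 0.0752 (adjusted p = 4.68e-05), or by 0.30 with the trend removed. Stag2 and Ncapg2 rose by 0.59 and 0.60. Of 27 nuclear pore and import genes 15 rose and none fell, against 9 and none with the trend removed, 8 of them both ways, including the transport factors Cse1l (0.53) and Kpna2 (0.45) and the pore scaffold gene Nup205 (0.47). Lmnb1, which encodes lamin B1 and was named after its values were seen, rose by 0.38 as fitted and by 0.50 with the trend removed.

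**Figure D5:**
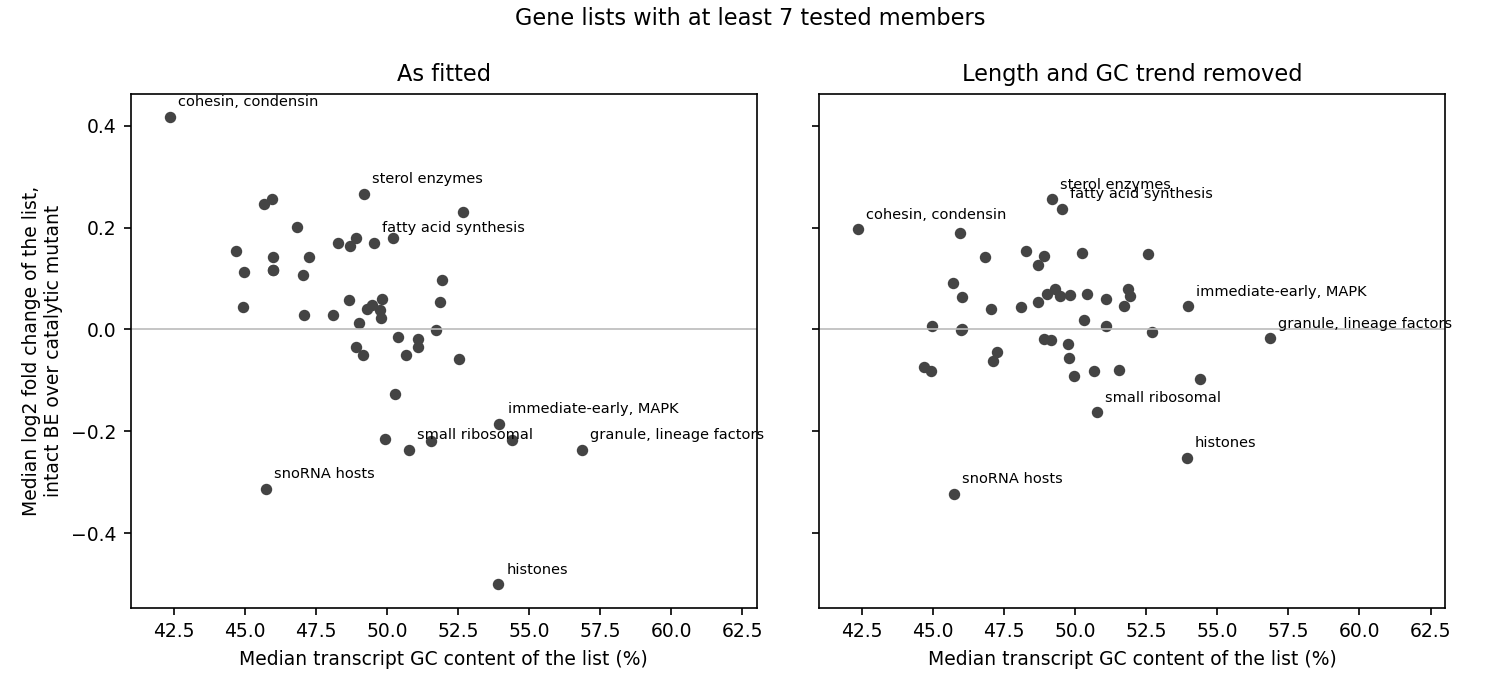
Median log2 fold change of each gene list with at least 7 tested members (vertical axis) against the median GC content of its members in percent (horizontal axis), as fitted (left) and with the length and GC trend removed (right); the mitochondrially encoded list (median -1.26 and -1.42) lies off the axis and is not drawn. Lists of low GC content lie high and lists of high GC content low on the left, the sterol enzymes stand at 0.27 and 0.26, and the snoRNA hosts at -0.31 and -0.32.

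Chaperone and amino acid stress genes gave mixed counts. Of 23 endoplasmic reticulum chaperone and folding genes 10 rose and none fell, and 8 were higher and none lower with the trend removed, 4 of them both ways. Hsp90b1 (GRP94) stood at 1375, 1348 and 1286 CPM against 988, 987 and 1031 CPM, with no overlap, and rose by 0.41 ± 0.0736 (adjusted p = 0.000186). Pdia3, a disulfide isomerase, rose by 0.40. Of 19 cytosolic and mitochondrial heat shock genes 8 rose and none fell, against 5 and 1 with the trend removed, with Hspd1 (0.43) and Hsp90aa1 (0.38) higher both ways. Of 28 ATF4 targets 4 rose and 2 fell with a median of -0.06, and 6 were higher and 2 lower with the trend removed. Atf4 itself overlapped between the groups (log2 -0.06, adjusted p = 0.598). Asns, asparagine synthetase, rose by 0.36 and Slc7a1, an arginine transporter, by 0.45, whereas Slc1a5, the glutamine transporter, fell from 352, 391 and 321 CPM to 221, 220 and 232 CPM (log2 -0.66 ± 0.0948, adjusted p = 3.12e-05) and by 0.42 with the trend removed. The nCas9 mean of Asns was 157 CPM, above both intact BE (127 CPM) and the mutant (98.4 CPM). Those of Slc7a1 (160 CPM) and Slc1a5 (381 CPM) were on the mutant's side. Of 20 cytosolic tRNA synthetases 7 rose and 2 fell, against 4 and 1 with the trend removed.

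Innate immune genes past the threshold went in both directions among interferon-stimulated genes and were all lower as fitted in nucleic acid sensing and antigen presentation. Of 31 interferon-stimulated genes 3 rose and 3 fell with a median of -0.21, and 1 was higher and 1 lower with the trend removed. Of 16 genes of nucleic acid sensing none rose and 4 fell, against none and 3 with the trend removed. Rnaseh2a, which encodes the catalytic subunit of RNase H2, fell by 0.45 and was also lower with the trend removed, whereas Irf3 fell by 0.45 as fitted and was at -0.19 (adjusted p = 0.0833) with the trend removed. Of 21 antigen presentation genes none rose and 6 fell, at a median GC content of 54.4%, and 1 was higher and 2 lower with the trend removed. H2-D1, a class I gene, fell by 0.32 as fitted and was at -0.09 (adjusted p = 0.384) with the trend removed, and reads of class I genes are partly shared between near-identical copies. Of 20 genes of NF-kB and cytokines 1 rose and 1 fell, against none and 1 with the trend removed, where Tnf was the gene that fell both ways (0.74 as fitted). Of 8 APOBEC and ADAR family genes and cofactors 2 rose and 1 fell, against 1 and none with the trend removed. Apobec1 did not pass (log2 -0.26 ± 0.133, adjusted p = 0.187); Apobec3 rose by 0.25, a call lost without intact BE replicate 2 (adjusted p = 0.212), and was higher by 0.35 with the trend removed.

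Genes of the leukemia program went in both directions. Of 24 genes of the MLL-AF9 program 3 rose and 4 fell, with a median of 0.04, and 2 were higher and 5 lower with the trend removed. None was higher both ways, and 2 were lower both ways. Hoxa9, a direct MLL-AF9 target, stood at 287, 310 and 300 CPM against 296, 295 and 278 CPM (log2 0.04 ± 0.0668, adjusted p = 0.729). Meis1, its partner, overlapped between the groups as fitted (0.03, adjusted p = 0.89) and was lower by 0.27 (adjusted p = 0.0453) with the trend removed. Hoxa5 fell from 39.2, 44.8 and 42.5 CPM to 23.2, 25.4 and 28.9 CPM (log2 -0.71 ± 0.124, adjusted p = 0.000172) and by 0.68 with the trend removed.

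Of the genes that name the line's drivers, Nras and Kmt2a fell and Mllt3 did not pass the test. Nras stood at 622, 549 and 562 CPM with intact BE, at 807, 891 and 806 CPM with the mutant and at a mean of 926 CPM with nCas9. The fall was 0.53 ± 0.0822 on the log2 scale (adjusted p = 4.96e-05), and 0.77 with the trend removed, against the direction of the trend at its GC content of 42.6%. Kmt2a, the mouse gene of MLL, stood at 612, 630 and 656 CPM against 819, 911 and 680 CPM and fell by 0.34 (adjusted p = 0.00139), or by 0.47 with the trend removed. Mllt3, the AF9 gene, was at 6.29 to 8.84 CPM and did not pass (log2 0.17, adjusted p = 0.761). Reads from the line's introduced Nras and MLL-AF9 and from the endogenous genes cannot be told apart in a count per gene.

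Markers of myeloid maturation also went in both directions. Of 25 mature myeloid genes 2 rose and 3 fell, against 1 and 2 with the trend removed. Ccr2, a chemokine receptor of monocytes, rose by 0.67 and Lyz2, lysozyme, fell by 0.35, both also with the trend removed. The nCas9 mean of Ccr2 (178 CPM) was at the level of intact BE (182 CPM), against 114 CPM with the mutant. That of Lyz2 (534 CPM) was near the mutant (550 CPM). Of 20 granule and lineage factor genes 2 rose and 5 fell, at a median GC content of 56.9%, and with the trend removed 2 were higher and none lower. The 2 higher with the trend removed were not the 2 that rose as fitted, and none of the 20 passed both ways. Cebpe, a factor of granulocyte differentiation, stood at 110, 121 and 132 CPM against 170, 177 and 174 CPM (log2 -0.52, adjusted p = 8.4e-05), and was at -0.07 (adjusted p = 0.579) with the trend removed. Its nCas9 mean of 113 CPM was at the level of intact BE. Itga2b, a megakaryocyte integrin, fell by 0.84 at 6.41 to 14.7 CPM. Of 27 immediate-early and MAPK genes, including Nras, 2 rose and 6 fell, and 2 were higher and 1 lower with the trend removed.

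The remaining lists are given by their counts, as fitted and then with the trend removed. Of 33 MYC and ribosome biogenesis genes 7 rose and 7 fell, against 5 and 2, among which Nop56, a core snoRNP protein, fell by 0.43 both ways. Of 36 translation factors 13 rose and 5 fell, against 5 and 5. Of 31 proteasome genes 6 rose and 3 fell, against 5 and 1, and of 44 splicing genes 16 rose and 3 fell, against 4 and 6. Of 27 glycolysis and hypoxia genes 5 rose and 2 fell, against 6 and none, with Pgk1, phosphoglycerate kinase, higher both ways (0.28 and 0.31). Of 24 redox genes 3 rose and 4 fell, against 2 and 2, and of 37 lysosome and autophagy genes 3 rose and 2 fell, against 5 and 1. Of 19 BCL2 family and caspase genes 6 rose and none fell, against 2 and none. Of 23 DNA methylation and Polycomb genes 4 rose and 3 fell, against 3 and 2, with Suz12, a core Polycomb subunit, higher both ways (0.52 and 0.28). Of 15 polyamine and methionine genes 6 rose and 1 fell, against 2 and none, and of 7 nuclear RNA and paraspeckle genes 1 rose and 1 fell, against none and 2. Of 20 heme and iron genes 5 rose and 4 fell, against 3 and 3. Tfrc, the transferrin receptor, rose by 0.63, and Ppox, of heme synthesis, fell by 0.67, both also with the trend removed. None of the 3 tested lymphocyte markers and of the 2 tested stromal markers passed, and of 5 mast cell and megakaryocyte markers 2 fell, against 3.

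The largest changes among genes of at least 5 CPM in the higher group were modest upward and larger downward. The 15 largest rises ran from 0.75 to 0.97 and included Slfn10-ps, Glra3, Nek1, Idi1, Zc4h2, Atp1b1, Uprt, Slfn3, St3gal2, Ythdc2, Fgl2, Atm, Atp13a3 and Kantr. Atp13a3, a polyamine transporter, was well expressed: 304, 257 and 259 CPM against 145, 161 and 182 CPM (log2 0.75 ± 0.0992, adjusted p = 1.63e-05). Calls in this set that were lost with 1 library left out included those of Slfn10-ps without intact BE replicate 1 (adjusted p = 0.0958), Kantr and Atp1b1 without intact BE replicate 2 (0.0546 and 0.0811), and Uprt and St3gal2 without mutant replicate 1 (0.0673 and 0.0911). With the trend removed, Slfn10-ps (adjusted p = 0.0871), Uprt (0.0542) and Kantr (0.0818) did not pass either. The 15 largest falls ran from -1.29 to -1.85 and included the mitochondrial mt-Co2, mt-Atp6, mt-Co3, mt-Tq and mt-Nd4, with Hist1h2bj, Slc12a5, Pde1b, Rpsa-ps10, Ovgp1, Apoe, Ager, Fam189b, Tmprss3 and Grik5. Hist1h2bj did not pass with the trend removed (adjusted p = 0.0624). Pde1b, a cyclic nucleotide phosphodiesterase, stood at 75.8, 80.3 and 70.1 CPM against 191, 257 and 150 CPM (log2 -1.41 ± 0.281, adjusted p = 0.00362).

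Genes called the same way with and without the trend, with the lowest adjusted p once it was removed, were named after their values were seen. Tagap1, a GTPase-activating protein gene, stood at 47.9, 47.4 and 43.2 CPM against 94.2, 116 and 88.6 CPM, with nCas9 at a mean of 98.1 CPM. It fell by 1.11 ± 0.116 on the log2 scale (adjusted p = 9.24e-07) and by 1.12 with the trend removed. Ppcdc, an enzyme of coenzyme A synthesis, fell from 72.2, 81.3 and 69.4 CPM to 40.3, 39.9 and 42.2 CPM (log2 -0.87, adjusted p = 3.94e-06), with nCas9 at 85.1 CPM. Stk11, the kinase LKB1, fell by 0.76, and by 0.45 with the trend removed. Cd28, a costimulatory receptor better known from T cells, rose from 104, 115 and 125 CPM to 202, 194 and 176 CPM (log2 0.73, adjusted p = 9.24e-07), and nCas9 cells were at a mean of 163 CPM. Cdkn2c, the cell cycle inhibitor p18, rose by 0.33 as fitted and by 0.63 with the trend removed.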

How the data were processed

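Polyadenylated RNA of RN2 cells was sequenced, and the authors deposited raw integer read counts per Ensembl gene; depth per library is given with the totals in the report. The submitters' processing notes name fastp 1.0.1, STAR 2.7.1a, featureCounts of Subread 2.0.3 and the build GRCm39. The sources used here do not give the annotation release, the strand setting or the treatment of reads that map to several places, so overlapping sense and antisense genes cannot be told apart.

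Means of the 6 groups were fitted over all 18 libraries with edgeR 4.0.16 under R 4.3.3 (filterByExpr, TMM scaling, robust quasi-likelihood F test), tested on simulated data. Benjamini-Hochberg adjustment covered the 14985 genes kept, which held 99.93% of counts, with a threshold of 0.05; the biological coefficient of variation was 13.3%. Levels are CPM on TMM-scaled library sizes, except the levels of cell type markers given with the library totals, which are CPM on total counts. Of 56748 IDs, 4675 (2.36% of counts) had no symbol. Groups follow the sample titles. Titles number them as biological replicates, and nothing further says that they came from separate cultures, so p-values measure the spread between these libraries.

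GC content and length are of the longest GENCODE M21 transcript (GRCm38, an older build than the authors'), matched for 97.4% of genes by Ensembl gene ID. The trend was a natural spline of 4 degrees of freedom on each, fitted per library over genes of at least 3 log2 CPM and entered as an offset. This step was added after the data were seen.

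Members and the 51 gene lists were chosen with earlier results of these data known. A few genes that the rule selects are not reported here. Genes were named by rule: the 15 largest rises and falls past the threshold with at least 5 CPM in the higher group, no overlap between libraries and no predicted or clone name; up to 4 members per list past the threshold, by adjusted p; and a fixed set with Apobec1, Ung, Tdg, Smug1, Cdkn1a, Mdm2, Trp53, Srebf2, Atf4, Hoxa9 and Meis1. Other members of a list are named to show how it varied and were chosen after their values were seen. Alternatives were DESeq2 1.42.0, upper-quartile scaling, other filters, a fit of the 6 libraries alone, a replicate block, leaving out each library, and leaving out the mitochondrial genes with the most abundant gene.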

Additional observations from a re-analysis of the deposited data

How the results depend on the processing

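The count of 3141 genes past the threshold stayed within 1.5 times under DESeq2 (3459), upper-quartile scaling (3013), no filter (2978), a filter of 1 CPM (3195), the 6 libraries alone (3559), removal of a length trend (2667) and a fit without the mitochondrial genes and the gene with the most counts (3095). With 1 library left out it ran from 1662 to 2989. With the length and GC trend removed it was 1576, and with 1 library also left out 765, 934 and 999 (intact BE replicates 1 to 3) and 926, 707 and 1842 (mutant replicates 1 to 3); the cause was not tested. The difference in mitochondrial share, -2.65 points, ran from -3.06 to -2.18 with 1 library left out. Leaving out a library of a group assumes that the other 2 vary like the remaining groups.

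Same-numbered libraries of the 2 groups did not deviate together (correlations of -0.0958, 0.0654 and -0.0524 over 9084 genes). These correlations cover only the 2 groups compared, so they cannot show whether a replicate number stands for a shared culture or batch. A replicate block gave 3438 calls, 3036 with the length trend removed and 2064 with the length and GC trend removed.

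Among 257 named genes, removal of the length and GC trend ended 86 calls with no change of sign. A further 7 that passed the threshold in at least 1 of the 2 fits changed sign. Among these, Meis1 alone passed with the trend removed, and the others lost their calls. Their values were Vars 0.047, Prkdc -0.042, Rnaseh2c 0.024, Zeb2 -0.059, Srm 0.0065, Psmb5 0.039 and Meis1 -0.27 on the log2 scale. With the replicate block as well these were Vars 0.048, Prkdc -0.040, Rnaseh2c 0.024, Zeb2 -0.060, Srm 0.0052, Psmb5 0.045 and Meis1 -0.27, and Atf4 was at 0.16.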
